A study of Homo sapiens with 2 samples.

Results

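The amino acid transporters described here are the genes of 7 solute carrier families, SLC1, SLC3, SLC6, SLC7, SLC36, SLC38 and SLC43, that carried a probe on the arrays. The rule used the gene name and no measured value, although the families were picked with earlier results of these data known. The families held 54 of the 30413 gene names that had a probe without an outlier flag, called all gene names below. They held 86 of the 41000 probes on the arrays. The arrays compared RNA from HEK-293 cells, an established human embryonic kidney line, transfected for 48 h with 75 nM of either a scramble oligo (control) or a miR-204 mimic. The labels list no other treatment, and both groups were grown in medium with serum. The RNAs were hybridized together on 2 arrays, with the control in Cy3 and miR-204 in Cy5 on the first array and the dyes exchanged on the second, the dye-swap or swapped array. The sources name no further transfection, so the arrays are 1 replicate, no test between the conditions was made, and the spread between cultures is unknown.

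Amino acid transporters set which amino acids a cell can take up, exchange or release. The SLC1 family carries glutamate and small neutral amino acids, and SLC6 carries neurotransmitters, their relatives and some neutral amino acids. The heavy chains SLC3A1 and SLC3A2 bring SLC7 light chains to the cell surface as heterodimers, while SLC36, SLC38 and SLC43 hold proton-coupled, sodium-coupled and facilitative carriers. Several of these proteins reabsorb amino acids in the kidney tubule. A miRNA pairs through its seed with target messages and lowers their level or translation.

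The sequence that distinguishes the transfected cells is that of the miRNA itself. RefSeq places the 22 bases of hsa-miR-204-5p on the minus strand of GRCh38.p14 at chr9:70810031-70810052, at a locus contained in the gene TRPM3. The labels do not say which arm of the hairpin the mimic carried, and the 5p arm is printed with its seed, bases 2 to 8, in capitals.
hsa-miR-204-5p: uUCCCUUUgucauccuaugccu

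A smaller share of these transporters than of all gene names was well above background in HEK-293 cells. In all 4 channels, 22 of the 54 genes had a probe well above background, or 40.7%, against 56.7% of all gene names. A further 8 genes were well above background in some channels and 24 in none. A gene in none is not shown to be absent, since SLC6A6, SLC7A11 and SLC43A2 were detected and yet had a probe in no channel. No transporter probe was saturated in any channel. Of the 86 transporter probes, 43 were well above background in the control channel of the first array, 44 in its miR-204 channel, 46 in the control channel of the swapped array and 36 in its miR-204 channel. The low count in the last channel was shared by the whole array, where it held 57.2% of all probes against 62.3% to 66.1% in the other channels.

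**Figure D1:**
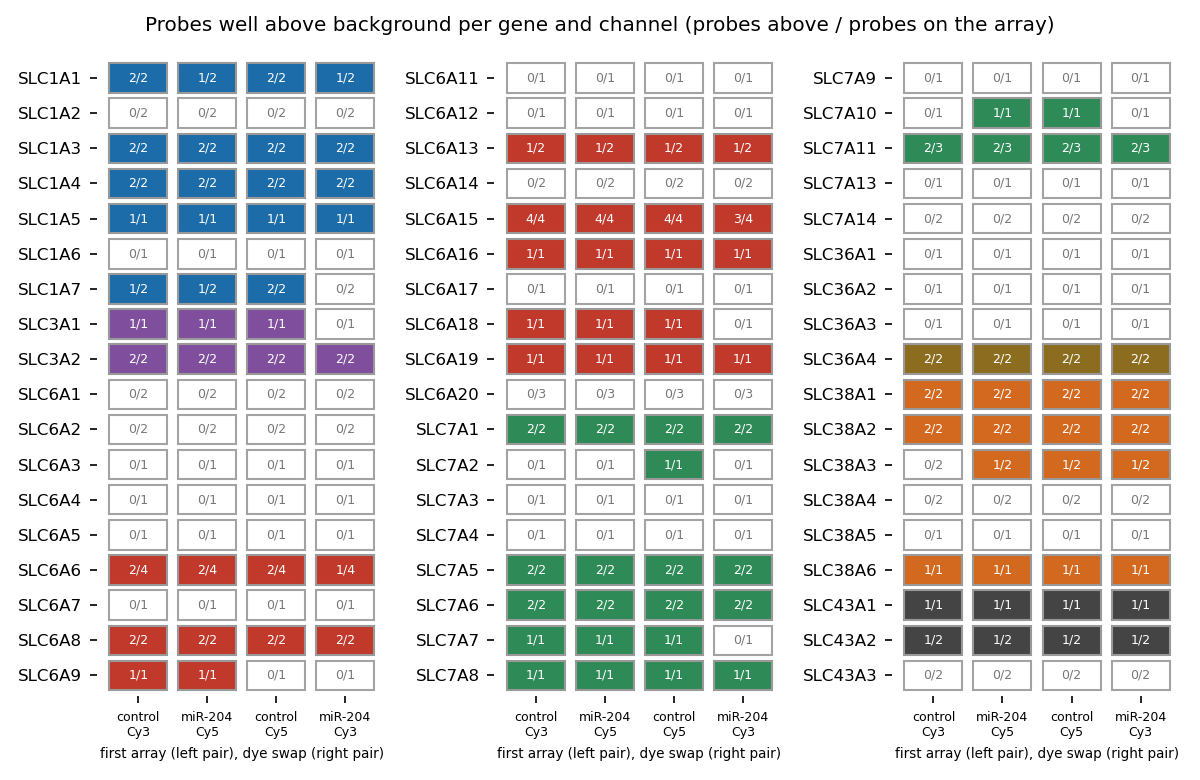
Each cell gives, for 1 transporter gene and 1 channel, the number of its probes well above background over the number on the array, with filled cells where at least 1 probe was above. Colours mark the families, the left pair of columns is the first array and the right pair the dye-swap array. Filled rows cover 22 genes in all 4 channels, and 24 rows are empty.

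The families differed in how much of them was seen. In SLC6, 11 of 19 genes were not well above background in any channel, among them the noradrenaline, dopamine and serotonin transporters SLC6A2, SLC6A3 and SLC6A4 and the neuronal glycine transporter SLC6A5. The taurine transporter SLC6A6, the creatine transporter SLC6A8, the GABA transporter SLC6A13, the neutral amino acid transporter SLC6A15, SLC6A16 and the kidney and gut carrier SLC6A19 were detected in all 4 channels. For SLC6A13 this rested on 1 of its 2 probes, the other being well above background in no channel. Nor were all 4 probes of SLC6A6 or of SLC6A15 well above background throughout, and some of SLC6A6 were so in no channel. In SLC1, the carriers SLC1A1, SLC1A3, SLC1A4 and SLC1A5 were well above background throughout, whereas the glial glutamate transporter SLC1A2 and the cerebellar SLC1A6 were in no channel. SLC7 had 5 of 13 genes in all 4 channels, namely the cationic amino acid transporter SLC7A1 and the light chains SLC7A5, SLC7A6, SLC7A8 and SLC7A11. Of the SLC36 genes, SLC36A4 was well above background in all 4 channels and the other 3 in none. SLC38A1, SLC38A2 and SLC38A6 of 6 SLC38 genes, and SLC43A1 and SLC43A2 of 3 SLC43 genes, were also well above background throughout. Among markers for the cell line, EYA1, NEFL and NEFM were each well above background throughout, and PAX2 was so in no channel. NEFM, a neurofilament subunit, was called lower, with ratios of -0.71 and -0.55 and a mean of -0.63. Among markers of other cell types, COL1A1 and DCN were in all 4 channels, SLC34A1 and LRP2 of the proximal tubule in some, and ALB, APOA2, PTPRC and CD3E in none.

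A ratio was computed for a probe that was well above background on both arrays in at least 1 of the RNAs, and a gene with such a probe is called counted. This held for 27 transporter genes, through 43 probes. Ratios are log2 of miR-204 over control after quantile normalization of the 4 channels, averaged over a gene's counted probes, and signals are the deposited processed intensities. A gene was called when its mean passed 1.5-fold and both arrays had the same sign. The only transporter called was SLC1A1, which was lower in miR-204 cells, against a background of 2.06% of 18585 counted gene names called lower. No transporter was called higher, against a background of 1.44%. At 2-fold no transporter was called in either direction, where 0.452% of gene names were called lower and 0.151% higher. The median ratio over the 27 genes was -0.02, from -0.93 for SLC1A1 to 0.52 for SLC38A3, beside 0.002 over all counted gene names.

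SLC1A1 encodes the glutamate and cysteine transporter EAAT3, found in neurons and in the kidney tubule. Its brighter probe, at chr9:4577002-4577061 on hg18, read 658 in control and 499.9 in miR-204 on the first array, and 522 in control and 322 in miR-204 on the swapped array. Both miR-204 values were below both control values, and the log2 ratios were -0.38 and -0.71, with a mean of -0.54. The dimmer probe, at chr9:4575423-4575482, read 26.4 in control and 18.9 in miR-204, then 18.7 and 6.16. It was not well above background in miR-204 on either array, and its ratios were -0.52 and -2.12. With each miR-204 signal taken as at least the lowest signal well above background in its channel, it was 1.03-fold lower in miR-204. That value is a mean over the arrays on another scaling of the signals, and it is not a strict bound. The first array gave a mean of -0.45 over both probes and the swapped array -1.42, with an overall mean of -0.93. The gene passed 1.5-fold through the dimmer probe only, whose miR-204 signals were not well above background. The call thus does not rest on a measured fold. With the brighter probe alone the ratio was -0.54, and with normexp background correction the gene's ratio was -0.28, so that no transporter was called lower in either case. The normexp setting adds an offset of 50 to each signal, which by itself draws the ratio of a dim probe towards 0. Since RNA came from whole cultures, fewer cells with a message and less of it per cell cannot be told apart.

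**Figure D2:**
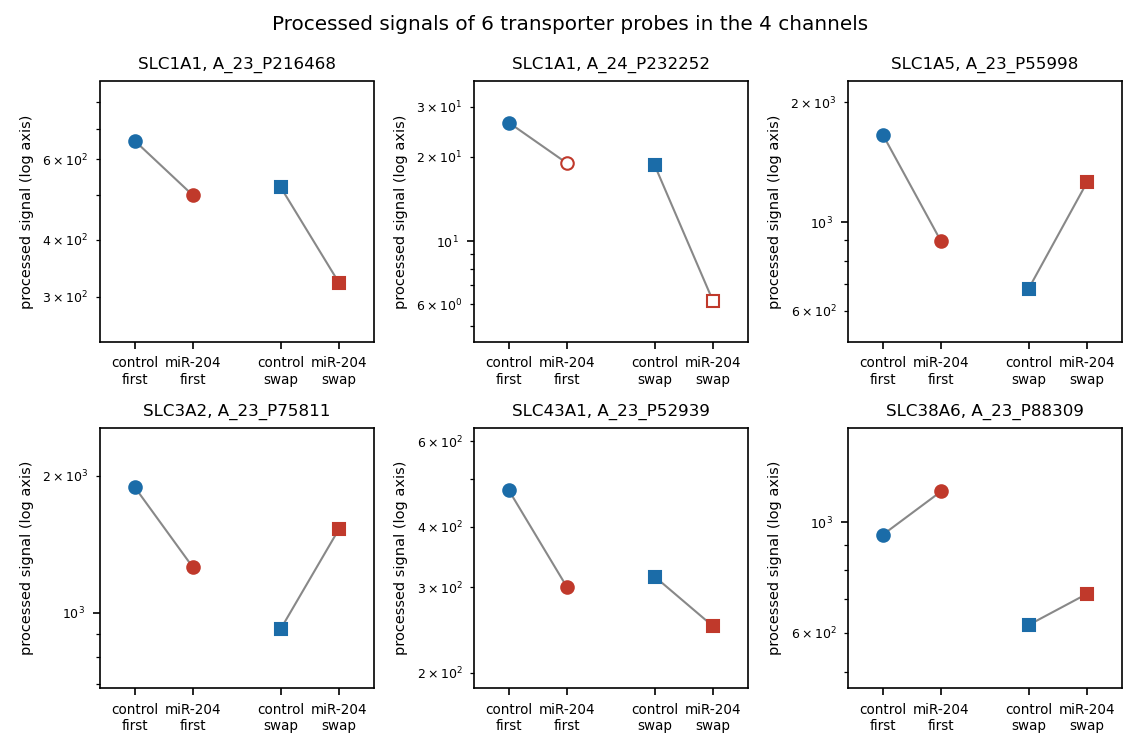
Processed signal on a log axis of 6 transporter probes in the 4 channels, with control in blue, miR-204 in red, circles for the first array and squares for the dye-swap array. Lines join the channels of 1 array, open symbols are not well above background, and each panel has its own scale. Lines fall on both arrays for SLC1A1 and SLC43A1, rise on both for SLC38A6, and run opposite ways for SLC1A5 and SLC3A2.

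The other SLC1 genes did not pass the call. The aspartate and glutamate transporter SLC1A3 had ratios of 0.28 and -0.18, and the serine and alanine transporter SLC1A4 had -0.32 and 0.07. SLC1A5, the glutamine transporter ASCT2, read 1657 in control and 895 in miR-204 on the first array, and 681 in control and 1258 in miR-204 on the swapped array. On each array the Cy3 channel was thus the brighter, whichever RNA it held. Its ratios were -0.87 and 0.89, with a mean of 0.01. SLC1A7, a glutamate transporter known from the retina, had the second lowest mean of the families, -0.69, from ratios of 0.32 and -1.69. Its counted probe read 35.4 in control and 44.3 in miR-204 on the first array, then 30.0 and 8.37, and the last value was not well above background.

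For the heterodimeric transporters, both heavy chains and their light chains were examined together. SLC3A2, the heavy chain also known as CD98 or 4F2hc, had a mean of 0.15 from ratios of -0.27 and 0.57. Its probe at chr11:62409265-62409324 read 1888 in control and 1258 in miR-204 on the first array, then 921 and 1526, again with Cy3 the brighter on each. Its other probe read 7298 and 7370, then 4769 and 6362, with ratios of 0.03 and 0.42. Thus the 2 probes of SLC3A2 were both slightly above 0 on average, while the arrays had different signs for the first of them. SLC3A1, the heavy chain of the cystine transporter of the kidney, was dim, at 23.8 in control and 18.9 in miR-204 on the first array and 14.98 and 9.33 on the swapped array, where the miR-204 value was not well above background. Its ratios were -0.37 and -0.50, and its mean of -0.44 became 0.005 with normexp background correction. The offset of 50 in that setting is larger than these signals, so the value cannot tell a change from background.

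None of the light chains was called. SLC7A5, the large neutral amino acid transporter LAT1, had -0.31 and 0.18, with a mean of -0.07, and its 2 probes differed by 0.008 in their means. SLC7A6 had a mean of 0.04 from -0.07 and 0.14. SLC7A8, or LAT2, read 329 in control and 305 in miR-204, then 193 and 178, and its ratios of -0.10 and -0.11 were the closest pair of any counted transporter. SLC7A7, which exports cationic amino acids, had -0.15 and -0.37, but its miR-204 signal of 19.4 on the swapped array was not well above background. SLC7A11, the cystine and glutamate exchanger xCT, had 0.09 and 0.11, although its counted probes had means of -0.07 and 0.27. The probe of SLC7A9, the light chain that pairs with SLC3A1, passed background in no channel, and that of SLC7A10 was in 1 RNA of each array, so neither was counted. SLC7A1, the arginine and lysine transporter CAT1, had a mean of 0.14, from -0.003 on the first array and 0.28 on the swapped array.

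**Figure D3:**
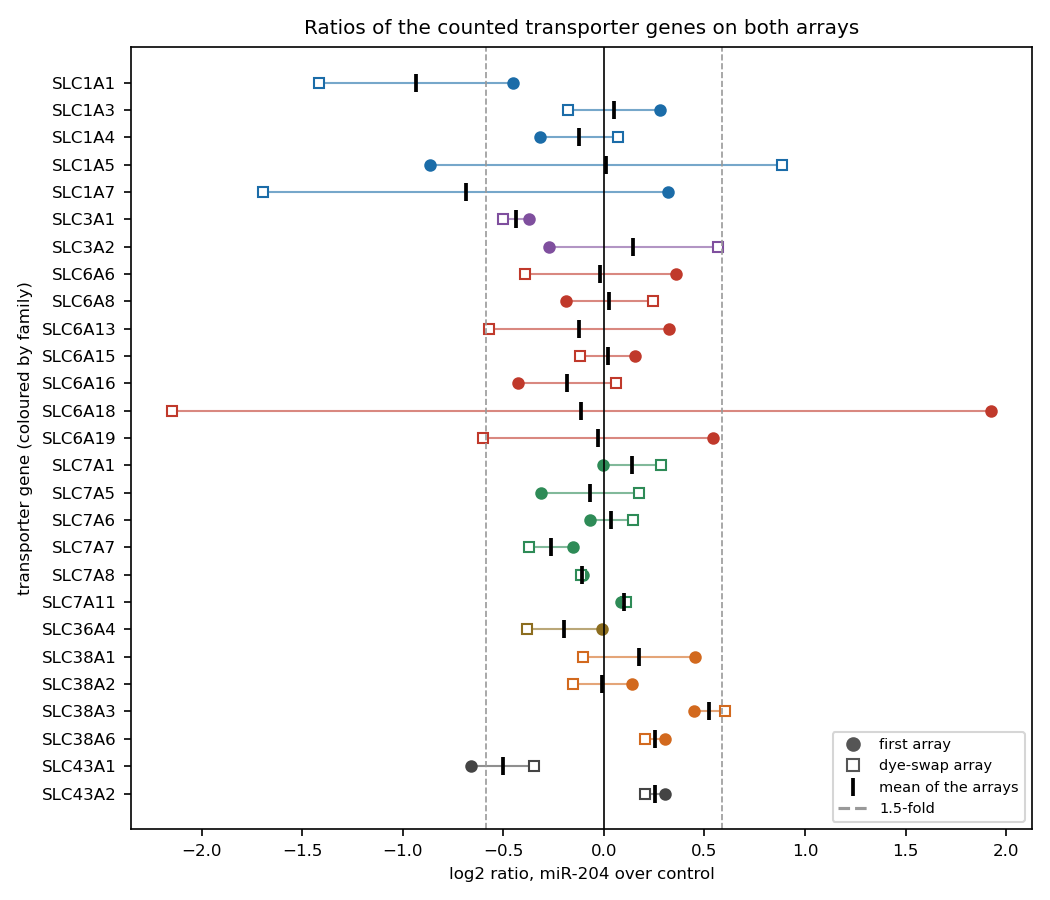
Log2 ratio of miR-204 over control for the 27 counted transporter genes, with filled circles for the first array, open squares for the dye-swap array and black bars for their mean. Dashed lines mark 1.5-fold, and colours mark families. Only SLC1A1 has both arrays on 1 side of 0 with a mean past a dashed line, and SLC6A18 has the longest line between the arrays.

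Of the sodium-coupled SLC38 carriers of neutral amino acids, 4 were counted and none was called. SLC38A1 and SLC38A2, the system A transporters SNAT1 and SNAT2, had means of 0.17 and -0.01, each with a higher ratio on the first array than on the swapped array. SLC38A6 read 943 in control and 1153 in miR-204, then 621 and 718, and its ratios were 0.31 and 0.20. SLC38A3, the system N glutamine transporter, had a mean of 0.52, from 0.45 and 0.60. Its signals were near background, at 19.0 and 26.3 on the first array and 18.7 and 26.6 on the swapped array, and the control value of the first array was not well above background. With normexp background correction, whose offset of 50 is larger than these signals and draws their ratios towards 0, its mean was 0.05.

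SLC43A1 and SLC43A2, the large neutral amino acid transporters LAT3 and LAT4, lay on different sides of 0. SLC43A1 read 475 in control and 299.9 in miR-204 on the first array, then 316 and 249 on the swapped array. Both miR-204 values were below both control values, as for the brighter SLC1A1 probe. Its ratios of -0.66 and -0.35 gave a mean of -0.50, short of 1.5-fold. SLC43A2 read 117 and 144, then 81.8 and 94.7, with ratios of 0.30 and 0.21. SLC36A4, a proton-independent amino acid transporter of this otherwise proton-coupled family, had -0.01 and -0.38, with both probes lower on average.

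The arrays had different signs for most counted transporters. They did not share a sign for 9791 of all 18585 counted gene names, among them some with a ratio of 0 on an array. The same sign on both arrays was found in 10 of the 27 genes, or 37.0%, against a background of 47.3% of counted gene names. Of these, SLC1A1, SLC3A1, SLC7A7, SLC7A8, SLC36A4 and SLC43A1 were lower and SLC7A11, SLC38A3, SLC38A6 and SLC43A2 were higher. Of the other 17 genes, 8 had the lower ratio on the first array and 9 the higher. All 7 counted SLC6 genes had opposite signs on the arrays, 2 of them lower and 5 higher on the first array. Pearson's r between the arrays was -0.52 over the 27 genes and Spearman's rho was -0.26, beside -0.02 and -0.05 over all 18585 gene names. These are descriptions across genes that share the same hybridizations, and genes are not independent replicates. For the 22 transporters with probes in all 4 channels, Pearson's r was -0.39 and Spearman's rho -0.29. Each was -0.08 over all such gene names. Among the genes that this set leaves out is SLC6A18, with ratios of 1.93 and -2.15, and its part in these values was not tested. On the first array the SD over transporters was 0.52, beside 0.43 over all gene names, and on the swapped array it was 0.67, beside 0.32. With probes in all 4 channels the order turned on the first array, at 0.39 beside 0.41, and the SD on the swapped array was 0.38 beside 0.27.

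**Figure D4:**
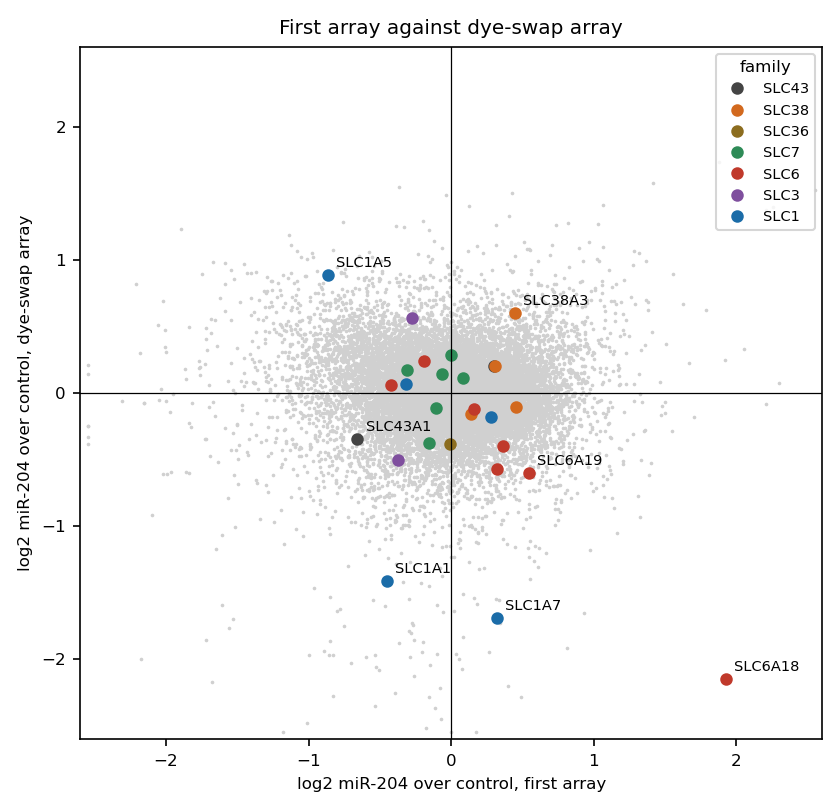
Log2 ratio of miR-204 over control on the first array, horizontal, against that on the dye-swap array, vertical, for all counted gene names in grey and the 27 counted transporters coloured by family. Grey points beyond the axes are drawn at the edge. A gene that follows the RNA lies in the lower left or upper right, where 10 transporters lie, and SLC6A18 and SLC1A5 lie far out in the other corners.

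In 3 transporters the part of the ratio that changed sign with the dyes, taken as the difference between the arrays divided by 2, passed 1.5-fold with opposite signs, against a background of 3.73% of gene names. These were SLC1A5, SLC1A7 and SLC6A18. The last 2 of these each rest on a miR-204 signal that was not well above background, and with probes in all 4 channels SLC1A5 alone passed, 1 of 22 genes beside 3.09% of all such gene names. With normexp background correction SLC1A5 alone passed as well, though the offset in that setting draws ratios of dim signals towards 0. SLC6A18, a kidney member of SLC6, read 58.3 in control and 224 in miR-204 on the first array, and on the swapped array 15.2 in control and 5.24 in miR-204. Here the Cy5 channel was the brighter on each array, and the last value was not well above background. Its ratios were 1.93 and -2.15, the widest gap among the transporters, with a mean of -0.11. SLC6A19, the neutral amino acid transporter B0AT1, had signals of 227 and 329.8, then 222 and 148, and ratios of 0.54 and -0.60, just short of the same limit. Either array alone would thus have given SLC1A5 and SLC6A18 a change past 1.5-fold, in opposite directions. A dye effect and any other difference between the arrays cannot be told apart with 1 array in each orientation.

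Probes for the same gene gave a further measure of precision. In the 14 transporters with at least 2 counted probes, the means of the lowest and highest probe differed by 0.008 to 0.78, with a median of 0.23. The probes had the same sign in 7 genes and mixed signs in the other 7. SLC1A1 differed most, through its dim probe, followed by SLC6A15, whose 4 probes ran from -0.37 to 0.37 around a mean of 0.02. The lowest of these probes was dim, at 35.6 in control and 28.5 in miR-204, then 22.9 and 16.1, the last of which was not well above background. SLC6A6 had probes at -0.26 and 0.23, SLC6A8 at -0.14 and 0.20, SLC7A1 at -0.03 and 0.31, and SLC38A2 at -0.14 and 0.12. The lower probe was dim for SLC6A6, at 20.9 in control and 22.1 in miR-204, then 27.2 and 17.2, the last not well above background. That of SLC7A1 was dim too, at 30.6 and 22.9, then 21.2 and 26.3. Probes may lie in different exons or transcripts of a gene, and their part in these differences was not tested.

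Of the 18 named transporters with a ratio, 8 kept the sign of their mean in each of up to 13 ways of processing the arrays, including either array alone. SLC1A1, SLC7A7, SLC7A8, SLC36A4 and SLC43A1 were lower throughout, and SLC38A3, SLC38A6 and SLC43A2 higher throughout. SLC43A1 ranged from -0.66 to -0.35 and SLC38A6 from 0.20 to 0.39. SLC1A1 ranged more widely, from -1.42 to -0.28. SLC7A7 came as near to 0 as -0.06, with normexp background correction, and SLC38A3 as 0.03, with no filter on dim probes. With normexp the arrays differed in sign for SLC43A2, at 0.23 and -0.05, and SLC7A7, at 0.007 and -0.12. All settings reuse the same 2 hybridizations, and the 4 lowest and 4 highest genes were named for their means. A gene with opposite signs on the arrays could not keep its sign with either array alone, so the count is no measure of support.

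**Figure D5:**
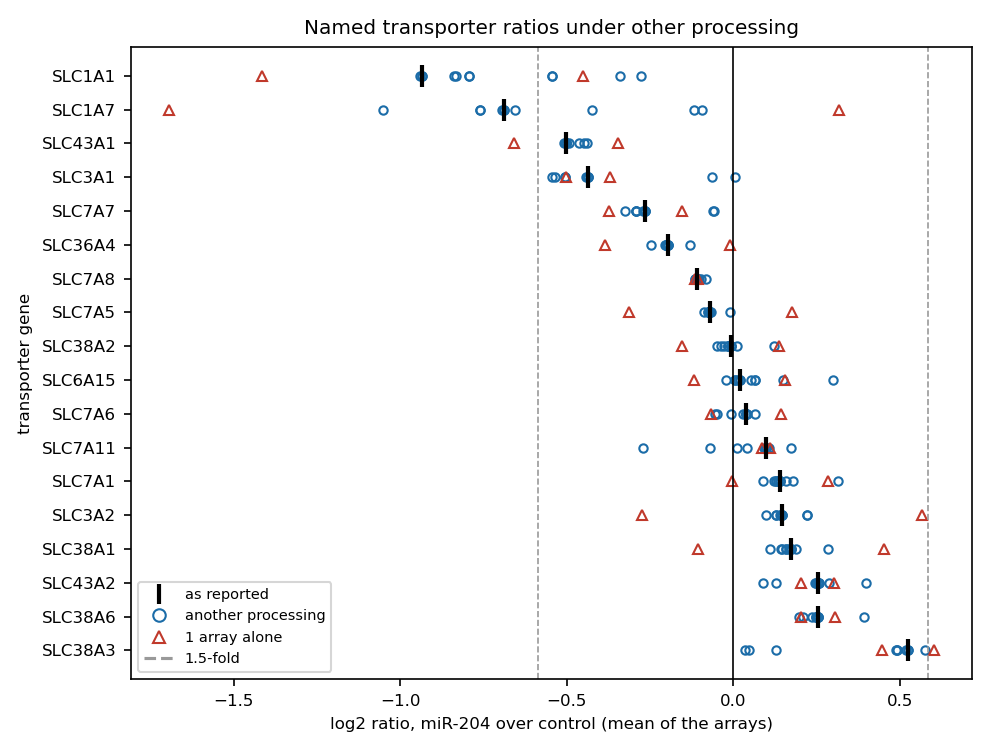
Log2 ratio of miR-204 over control for the 18 named transporters with a ratio, ordered by the reported value (black bar). Blue circles are other ways of processing, red triangles are 1 array alone, and dashed lines mark 1.5-fold. Apart from SLC1A1 and SLC1A7 on the left and SLC43A1 and SLC38A3 on 1 array, the values stay within 1.5-fold.

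No counted gene on 4 lists of genes that work beside these transporters was called, against the backgrounds of 2.06% lower and 1.44% higher, at which few calls would fall in lists of this size. Of 21 other transporters of amino acids, peptides and cystine, 12 were counted and none was called, with a median of 0.07. The lysosomal transporter SLC17A5 had the lowest ratio among them, -0.56, from -0.77 and -0.35, and the lysosomal cystine transporter CTNS the highest, 0.25, from 0.09 and 0.40. All 32 genes of amino acid synthesis and the amino acid response were counted and were above background throughout, and none was called, with a median of 0.0002. ATF4, the transcription factor that drives this response, had -0.32 and 0.17, and its target ASNS, asparagine synthetase, had 0.10 on each array. In this list 20 genes did not share a sign between the arrays, including PHGDH with -0.79 and 0, and 15 of these were lower on the first array. Of all 18585 counted gene names, 9791 did not share a sign, 4599 of them lower on the first array. Of 26 genes of amino acid sensing by mTORC1, 25 were counted and none was called, with a median of -0.002. Of 11 genes of glutathione synthesis and cystine use, 10 were counted and none was called, with a median of 0.05. GCLC and GCLM, the subunits of the enzyme that makes glutathione's precursor, had means of 0.23 and 0.07. Both had opposite signs on the arrays, at 0.50 and -0.03 for GCLC and 0.26 and -0.12 for GCLM.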

How the data were processed

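Feature Extraction 9.5.3.1 was used by the authors to read the arrays. Their deposited processed signals are intensity values, which that software had corrected for background and dye, and the mean and background signals are uncorrected intensity values. The deposited log ratio is log10 of Cy5 over Cy3, and the deposited series table holds log2 ratios of miR-204 over control. Positions of probes are given on hg18, as in the files.

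Control spots and 128 probes with an outlier flag, none of them a transporter's, were left out. Spots of a probe were averaged, and log2 processed signals were quantile normalized over the 4 channels with limma 3.58.1 in R 4.3.3. All 54 gene names were current RefSeq symbols. The averaging over probes and the calls were tested on simulated log2 ratios of counted probes, with effects well past 2-fold. Reading of the arrays, normalization and the background filter were not tested in this way. The genes named were each transporter called, the 4 lowest and 4 highest, the heavy chains with SLC7A5 to SLC7A11, and the gene of each family whose probes differed most. Other genes given with values were chosen after their values were seen. The members and gene lists were chosen with earlier results of these data known. The alternatives changed the background correction, normalization, deposited values, filters, probe summary, arrays and test. Normexp background correction used an offset of 50 and was followed by loess. The authors' p-value columns were not used. No sequences of probes, 3' UTRs or proteins were used here. Precision is limited by the number of arrays. A marker of the cell line is not reported here.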

Additional observations from a re-analysis of the deposited data

How the results depend on the processing

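The count of transporters lower by 1.5-fold, 1 as reported, was 0 with normexp background correction and loess, with loess and no background correction, when every channel of a probe had to be well above background, with the brightest probe of each gene and when each array had to pass. It was 4 with no filter on dim probes. The methods' t-test, taken over channels of 1 replicate, does not compare the conditions. It gave 0 unadjusted or Benjamini-Hochberg adjusted, and 2 transporter probes, for SLC1A1 and SLC43A1, reached an unadjusted 0.05 at any fold. With either array alone the count ranged from 2 to 4 lower and from 1 to 2 higher at 1.5-fold, and from 0 to 3 lower and 0 to 1 higher at 2-fold. The dye-swap array alone gave 4 lower, SLC1A1, SLC1A7, SLC6A18 and SLC6A19, and the first array alone 2, SLC1A5 and SLC43A1. With no filter, 1 gene was lower by 2-fold, SLC7A2, through a dim probe. The median ranged from -0.11 to -0.0027 with either array alone. The count opposite on the arrays, a measure chosen after seeing the data, was 3 as reported, 1 with normexp, 5 with quantile normalized ratios, 6 with no filter and 1 with every channel above background. No paired analysis was possible because only 1 replicate of each RNA was hybridized.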
